A study of Arabidopsis thaliana with 16 samples.

Results

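The genes described here were those whose transcripts were higher in cpc try root tips than in wild-type root tips on both growth media of a microarray study of Arabidopsis thaliana root epidermis mutants. A probe set, the group of short probes on the array that reads 1 transcript, was a member if its mean log2(signal + 4.1) in cpc try exceeded that in Columbia by at least 1 on NaCl medium and by at least 1 on standard medium, and if its mean cpc try signal was at least 50 on both. Signal is the authors' MAS5 intensity, a linear value scaled so that the trimmed mean of every array was 250.03. Of 22746 probe sets that are not array controls, 127 met these thresholds, of which 9 were set aside by name, among them TRY, WRKY53, XTH33 and 2 UDP-glycosyltransferases, which left 118 members. Of these, 65 carried 1 gene in the annotation used here, 3 carried several and 50 carried none, so 53 are called by their probe set identifier. The 50 with no gene could not be screened by name, so genes of the kinds set aside may be among them. In the opposite direction, 345 probe sets were lower in cpc try by at least 1 on both media with a mean Columbia signal of at least 50.

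The root surface of Arabidopsis is made of files of cells that grow a hair and files that do not. WEREWOLF (WER) and MYB23 are related MYB transcription factors that promote the non-hair fate, in part through GLABRA2. CAPRICE (CPC) and TRIPTYCHON (TRY) are small MYB proteins without an activation domain that oppose them, and SCRAMBLED (SCM) is a receptor-like kinase through which cells sense their position. In roots that lack both CPC and TRY, nearly all surface cells are known to stay hairless.

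There were 16 arrays, 2 biological replicates for each of 4 genotypes on each of 2 media. The genotypes were cpc try (cpc-1 try-82), wer myb23 (wer-1 myb23-1), scm (scm-2) and the Columbia wild type that the mutants were set against. Seedlings 5 days old spent 1 hour on medium with 140 mM NaCl or on standard medium, and about 30 roots, cut some 5 mm above the tip, were pooled for each array. The labels name the mutant alleles without giving their lesions, and the growth-medium entry of the mutant arrays titled as standard names NaCl (with 4 days as the age for cpc try and scm). The titles and descriptions were followed. Each array holds RNA of all tissues of the root tip, so more cells of a type and more RNA per cell cannot be told apart.

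Replicate arrays correlated at 0.907 to 0.952 across probe sets, and the median signal of an array lay between 72.6 and 86.1. The labels were set beside TRY, a gene they name, and beside markers. TRY itself read 501 and 481 on NaCl and 751 and 870.0 on standard medium in cpc try, against 15.6 and 9.98 on NaCl and 47.8 and 49.7 on standard medium in Columbia, so its probe set detected more transcript in the mutant and does not show a loss. No probe set carried CPC, WER, MYB23 or SCM as its single gene in the annotation used here, so these could not be examined. The 5 measured markers of hair cells, out of 16 listed, summed to 61.4 to 103 in the cpc try arrays, 3016 to 6213 in wer myb23, 4221 to 6135 in scm and 3067 to 6065 in Columbia. All 5 fell in cpc try, with limma adjusted p between 1.6e-14 and 6.9e-10, where 6.91% of the 17059 probe sets tested fell. The marker list was chosen with earlier results of these data known, so these falls are a description and no independent check. The peroxidase gene AT1G30870 fell by 7.62 and the pectin methylesterase gene AT5G04960 fell by 4.48 on the log2 scale. The low hair-cell markers and the high members were seen in the same 4 arrays, and the part of cell makeup in the members' values was not tested.

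Few genes of the other lists were measured. ATMYC1, which codes for a bHLH partner of the epidermal MYB proteins, fell by 3.86 in cpc try (limma adjusted p = 5.9e-11). JACKDAW, a zinc finger regulator upstream of SCM, differed by 0.78 ± 0.28 (log2, SE, limma adjusted p = 0.079) and the cortex marker AT1G62500 by 0.47 ± 0.29 (adjusted p = 0.35). The single measured shoot marker, RUBISCO ACTIVASE, fell by 0.59 ± 0.18 (limma adjusted p = 0.039). In all, 7 of 9 measured listed genes fell and 0 rose at an adjusted p under 0.05, against backgrounds of 6.91% and 4.71%. The 7 include the 5 hair-cell genes, and all lists were chosen with earlier results known, so nothing is read from these counts. No probe set carried a listed marker of root cap, endodermis, stele or dividing cells as its single gene in the annotation used here. The members' cell types could therefore not be read from them.

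The differences that chose the members are given as a description, with no test. Over the 118 members the median difference, cpc try minus Columbia, was 1.49 on NaCl (1.00 to 3.71) and 1.46 on standard medium (1.02 to 3.34), on log2(signal + 4.1), where the medians of all tested probe sets were -0.03 and -0.02. The difference was at least 2 on both media for 17 members. Within each medium, both cpc try arrays lay above both Columbia arrays for 102 members (the same holds for 6.24% of all probe sets), and the other 16 overlapped on at least 1 medium. In wild type, 47 members had a mean Columbia signal under 50 on both media, including 12 of the 16 that overlapped. The share of all probe sets under that level was not computed. The median signal of an array was itself only 72.6 to 86.1, so nothing is read from this count. Only 8 members reached a mean cpc try signal of 1000 on both media. The members nearest the threshold were 264436_at and the endoglucanase gene GH9B6, both with a smaller difference of 1.00, and AT2G17280 with 1.01. Just outside stood 259120_at with 0.996, 266799_at with 0.995 and 262119_s_at with 0.995.

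**Figure D1:**
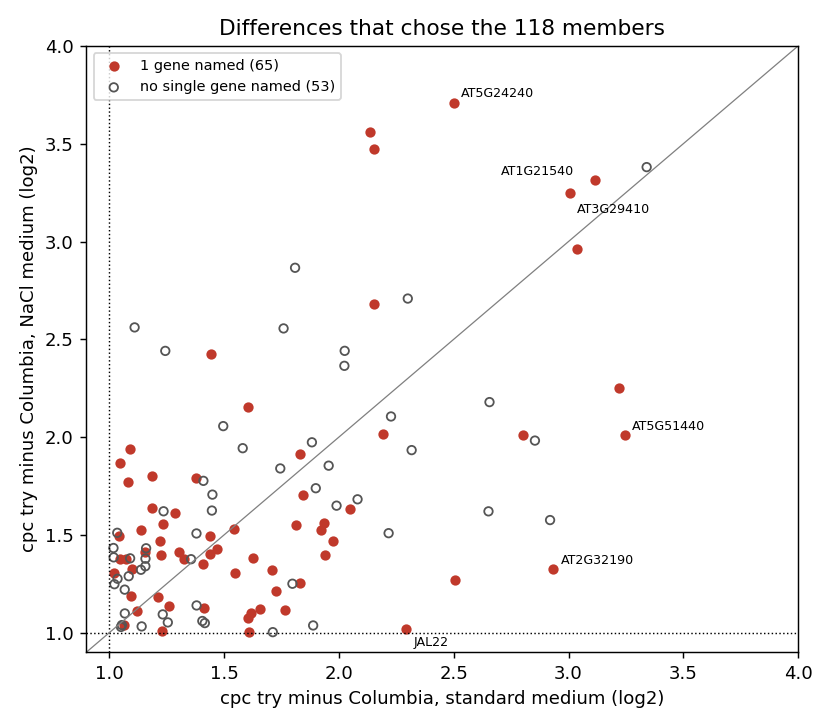
Each point is 1 of the 118 members, with its cpc try minus Columbia difference on standard medium on the horizontal axis and on NaCl medium on the vertical axis, both on log2(signal + 4.1); filled points carry 1 named gene, the dotted lines mark the threshold of 1 and the grey line marks equal differences. Most members lie between 1 and 2 on both axes, while AT5G24240 (3.71 on NaCl, 2.50 on standard) and AT2G32190 (1.32 on NaCl, 2.93 on standard) lie far from the line.

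Enzymes of specialised metabolism, which make terpenes, phenolics and other compounds not needed by every cell, formed the largest group with a known role, 14 of the 65 named genes. Their median difference was 1.58 on NaCl and 1.57 on standard medium. The role groups were assigned after the values were seen, and the share of such genes among all named probe sets was not computed. AT1G21540, a member of the acyl-activating enzyme family, read 48.1 and 101 on NaCl and 83.4 and 94.2 on standard medium in cpc try, against 3.65 and 3.06 on NaCl and 11.5 and 3.27 on standard medium in Columbia. It read at most 11.5 in the other 12 arrays. AT3G29410, of the terpene synthase family, read 229.9 and 294 on NaCl and 335 and 445 on standard medium in cpc try, against 6.46 and 69 on NaCl and 32.4 and 60.5 on standard medium in Columbia. The lowest cpc try array was above the highest array of every other genotype, and the Columbia replicates on NaCl were far apart. A second gene of that family, AT5G48110, was less even: cpc try read 1226 and 237 on NaCl and 943 and 837 on standard medium, against 232 and 279 on NaCl and 255 and 329 on standard medium in Columbia, and 1 cpc try array on NaCl fell between the Columbia arrays.

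AT5G47980 codes for a BAHD acyltransferase, an enzyme family that moves acyl groups onto plant metabolites, and its gene lies in the thalianol triterpene cluster. It read 914 and 774 on NaCl and 1812 and 1489.9 on standard medium in cpc try, 152 and 173 on NaCl and 419 and 301 on standard medium in wer myb23, 236 and 162 on NaCl and 419 and 325 on standard medium in scm, and 215 and 195 on NaCl and 415 and 307 on standard medium in Columbia. All 4 cpc try arrays stood above the other 12, and in each genotype the NaCl arrays were the lower pair. A second BAHD gene, AT1G24430, differed by 2.42 on NaCl and 1.44 on standard medium, with overlap on standard medium. Of the berberine bridge enzyme-like oxidases, AT4G20820 read 104 and 111 on NaCl and 111 and 135 on standard medium in cpc try and 40.3 and 29.8 on NaCl and 24.7 and 34.3 on standard medium in Columbia, which were separate, whereas AT5G44440 overlapped on both media. The oxidoreductase AT5G51930 differed by 3.56 on NaCl and 2.13 on standard medium, and the polyprenyl synthetase AT3G14510 by 1.26 on NaCl and 1.83 on standard medium. Smaller differences were seen for the reductase AT1G25460 (1.53 on NaCl, 1.55 on standard medium), the GDSL esterase AT3G48460 (1.61 on NaCl, 1.29 on standard medium), the serine carboxypeptidase-like gene AT3G02110 (1.80 on NaCl, 1.19 on standard medium) and AT1G14120, a 2-oxoglutarate-dependent oxygenase (1.56 on NaCl, 1.24 on standard medium). The aldo/keto reductase AT1G60690 overlapped Columbia on both media. In this group 10 of 14 genes had separate cpc try and Columbia arrays on both media. Members were chosen for that difference, and cpc try was above Columbia in this way for 6.24% of all probe sets.

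Transcription and signalling genes, 12 in number, differed by a median of 1.41 on NaCl and 1.49 on standard medium. AT5G24240, of the phosphatidylinositol 3- and 4-kinase family, had the largest NaCl difference of all members, 3.71, and 2.50 on standard medium. It read 199 and 111 on NaCl and 336 and 197 on standard medium in cpc try, against 5.55 and 10.1 on NaCl and 91.5 and 18.3 on standard medium in Columbia. The Columbia arrays were low on NaCl. The F-box gene AT1G10110, of the family that selects proteins for degradation, read 143 and 55.7 on NaCl and 91.3 and 58.4 on standard medium in cpc try, against 2.29 and 29.4 on NaCl and 30.4 and 4.66 on standard medium in Columbia. The protein kinase gene AT1G66460 had tighter replicates, 272 and 243 on NaCl and 401 and 407 on standard medium in cpc try, against 95.8 and 74.5 on NaCl and 92.6 and 114 on standard medium in Columbia.

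Among the receptor-type genes, AT5G59700 (a receptor-like kinase) differed by 1.40 on NaCl and 1.94 on standard medium, and the leucine-rich repeat genes AT1G33600 and AT3G19320 by 2.01 and 1.38 on NaCl and by 2.80 and 1.33 on standard medium. Transcription factor genes were present in small number. AT1G68360, a C2H2 zinc finger gene of the family that regulates trichome initiation, read 65.2 and 87.4 on NaCl and 70.6 and 41.6 on standard medium in cpc try, against 7.1 and 34.5 on NaCl and 16.9 and 31.7 on standard medium in Columbia. The AP2/ERF genes AT1G44830 and AT1G36060 differed by 1.31 and 1.41 on NaCl and by 1.55 and 1.31 on standard medium. AT1G44830 read 104 and 108 on NaCl and 314 and 375 on standard medium in cpc try, against 84.3 and 18.3 on NaCl and 109.5 and 120.0 on standard medium in Columbia, so that both genotypes were lower on NaCl. The CCCH zinc finger gene AT1G66810 (1.40 on NaCl, 1.44 on standard medium) and the RING finger gene AT2G42360 (1.33 on NaCl, 1.10 on standard medium) read under 75 in every cpc try array. BPC1, a GA-repeat binding factor, overlapped Columbia on NaCl.

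Of the 7 chaperone and stress genes, the small heat shock gene AT5G51440 differed most. It read 215 and 297 on NaCl and 218 and 214 on standard medium in cpc try, 34.6 to 76.3 over the 4 wer myb23 arrays, 41.7 to 114 over the 4 scm arrays, and 91.4 and 38.6 on NaCl and 28.9 and 12.2 on standard medium in Columbia. No other genotype reached the cpc try level. A related gene, AT2G19310, differed by 1.49 on NaCl and 1.04 on standard medium, and the DnaJ co-chaperone genes AT2G20560 and AT2G21510 by 1.79 and 1.47 on NaCl and by 1.38 and 1.98 on standard medium. AT2G03850, of a late embryogenesis abundant family, overlapped on NaCl, where 1 Columbia array read 63.1. The stress-responsive barrel gene AT5G22580 differed by 1.63 on NaCl and 2.05 on standard medium, and the late embryogenesis abundant-related gene AT5G60520 by 1.38 on NaCl and 1.07 on standard medium.

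The 5 cell wall genes had the smallest median of the role groups on standard medium apart from primary metabolism, 1.19, and 1.47 on NaCl. AT5G10130, of the pollen Ole e 1 family of secreted proteins, was among the strongest named members in signal. It read 4752 and 4071 on NaCl and 4868 and 6686 on standard medium in cpc try, against 2224 and 1418 on NaCl and 2582 and 3056 on standard medium in Columbia, and the genotypes did not overlap. The family 9 endoglucanase genes GH9C3 and GH9B6 differed by 1.53 and 1.00 on NaCl and by 1.14 and 1.61 on standard medium, and GH9B6 overlapped on standard medium, where a Columbia array read 88.7. The pectin-degrading families gave AT5G19730 (1.64 on NaCl, 1.19 on standard medium) and the pectate lyase AT4G13210 (1.47 on NaCl, 1.22 on standard medium).

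The lectin, protease and defence group held 6 genes. JAL22, a jacalin-type lectin, differed by 1.02 on NaCl and 2.29 on standard medium, and its cpc try replicates on standard medium were far apart: cpc try read 301 and 221 on NaCl and 826 and 230.5 on standard medium, against 130.2 and 121 on NaCl and 68.2 and 108 on standard medium in Columbia. The aspartyl protease AT4G04460, known as a marker of cells that die during root cap development, read 709 and 644 on NaCl and 575 and 658 on standard medium in cpc try, against 264 and 250.4 on NaCl and 343 and 256 on standard medium in Columbia. Its replicates were close and the genotypes were well apart. The prolyl oligopeptidase AT1G20380 (1.11 on NaCl, 1.12 on standard medium), the Bet v 1 gene AT3G26460 (1.71 on NaCl, 1.84 on standard medium) and the curculin-like lectin AT5G18470 (1.10 on NaCl, 1.62 on standard medium) were separate on both media, and the jacalin gene AT1G33790 overlapped on standard medium. In primary metabolism, the proline dehydrogenase gene AT5G38710, whose enzyme breaks down proline, read 172 and 167 on NaCl and 76.3 and 71 on standard medium in cpc try, against 66.2 and 27.9 on NaCl and 30.9 and 36.4 on standard medium in Columbia.

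The 17 named genes of other or unknown function included some of the largest differences. AT5G16030 read 64.2 and 46.6 on NaCl and 80.2 and 76 on standard medium in cpc try and stayed at or under 23 in the other 12 arrays. AT2G40960 read 311 and 309.7 on NaCl and 258 and 219 on standard medium in cpc try, while the other 12 arrays lay between 45.3 and 77.9. AT2G41730 read 660.4 and 724 on NaCl and 609 and 533 on standard medium in cpc try, against 217 and 150.4 on NaCl and 166 and 149 on standard medium in Columbia. AT2G32190 had a wer myb23 level on NaCl, 153 and 146, above that of 1 of the cpc try arrays there, 251 and 74.9.

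Among the 53 members without a single named gene, differences ran from 1.00 to 3.38 on NaCl and from 1.02 to 3.34 on standard medium, and 47 were separate on both media. Their choice favoured such separation, which held with cpc try above Columbia for 6.24% of all probe sets. The member that ranked first by the mean of both differences was 262319_s_at. It read 3324 and 2832 on NaCl and 2645 and 2531 on standard medium in cpc try, 264 to 477 in wer myb23, 242 to 400.1 in scm, and 318 and 266 on NaCl and 204 and 310.1 on standard medium in Columbia. The other genotypes were alike in level and every cpc try array was far above them. The suffix _s_at marks probes shared by several transcripts, which 8 members carried in this or a related form, so the reading may be a sum. A different order was seen for 261363_at, which read 1973 and 1846 on NaCl and 2858 and 2912 on standard medium in cpc try, 975 and 968 on NaCl and 1625 and 1405 on standard medium in wer myb23, 1468 and 1264 on NaCl and 2216 and 1841 on standard medium in scm, and 617 and 595 on NaCl and 627 and 834 on standard medium in Columbia. All 3 mutants lay above Columbia on both media.

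The 65 named loci were spread over the genome, with 17 on chromosome 1, 14 on chromosome 2, 8 on chromosome 3, 4 on chromosome 4 and 22 on chromosome 5. No 2 of them were adjacent genes. The closest pair was AT5G62280 and AT5G62330, 5 genes apart.

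**Figure D2:**
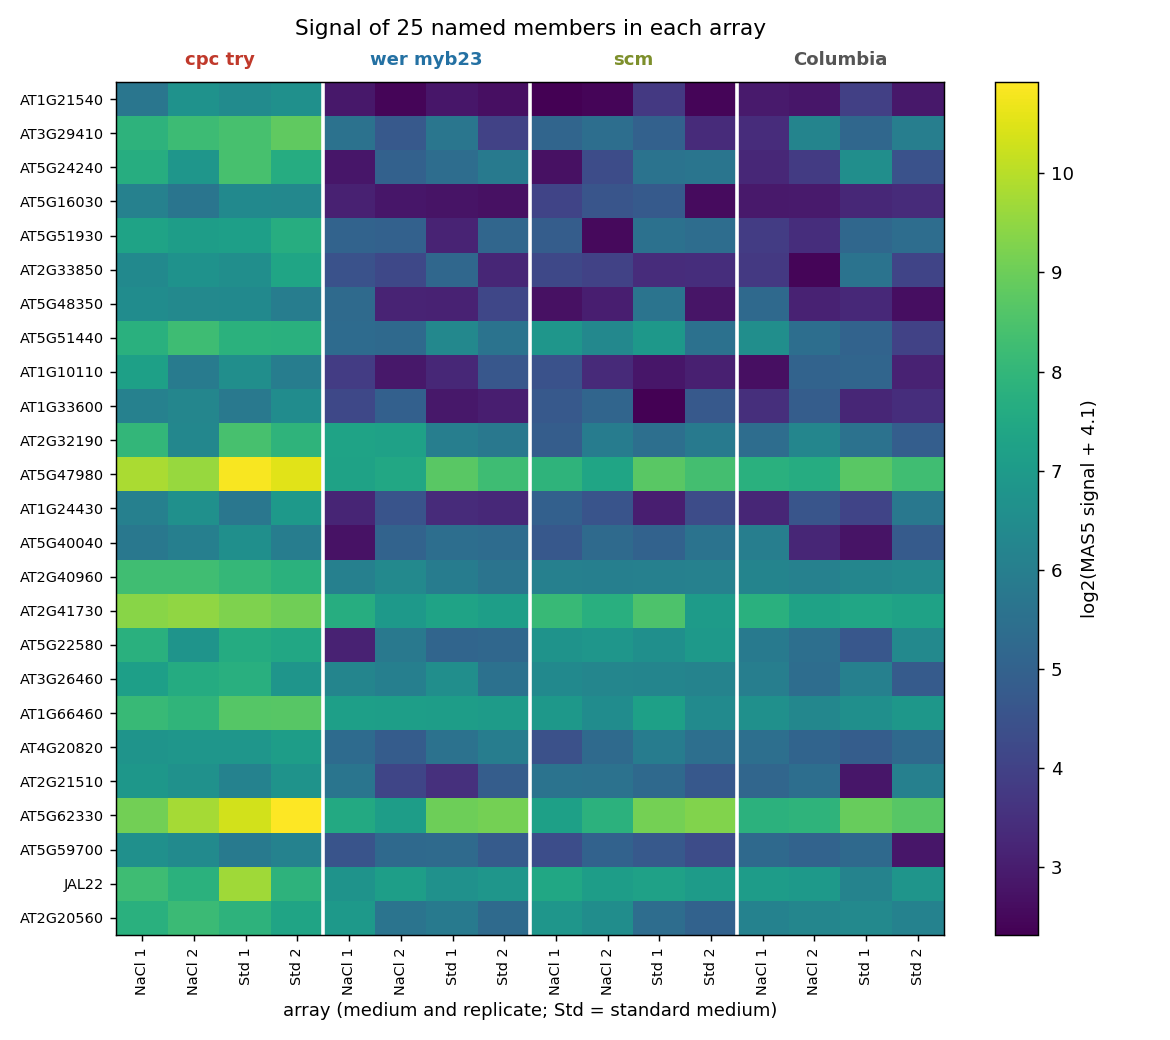
The colour gives log2(signal + 4.1) of the 25 named members with the largest mean difference (rows) in each of the 16 arrays (columns, grouped by genotype, with NaCl left of standard medium). The 4 cpc try columns are all brighter than the other 12 in most rows. The exceptions are AT2G32190, AT1G24430, AT5G40040, AT5G22580 and AT5G62330, where another array exceeds at least 1 cpc try array. AT5G47980 and AT5G62330 are brighter in the standard columns than in the NaCl columns of each genotype.

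The other mutants show where the members stood in roots whose epidermis was changed in another way. Both were set against the Columbia arrays that had helped to choose the members, so these values are a description only. Averaged over both media, the wer myb23 mean lay below Columbia for 60 of 118 members, between Columbia and cpc try for 56 and above cpc try for 2. The scm mean lay below Columbia for 40, between for 77 and above cpc try for 1. All 4 wer myb23 arrays were below all 4 cpc try arrays for 87 members (4.41% of all probe sets), and all 4 scm arrays were for 80 (3.58%). For 66 members all 4 cpc try arrays were above all 12 other arrays (1.15% of all probe sets). Members were chosen for high cpc try values, so nothing is read from these counts. The median difference from Columbia was -0.02 for wer myb23 and 0.18 for scm, where the medians of all tested probe sets were 0.00 and -0.01.

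The difference between wer myb23 and scm was formed from arrays that had no part in choosing the members and could be tested. Of 118 members, 111 passed a filter on low values and entered limma with all 17059 probe sets that passed. The contrast itself used the wer myb23 and scm arrays, while the filter and the spread were taken over all 16, so that a member could pass the filter through its cpc try arrays. In wer myb23, 10 members were lower than in scm at an adjusted p under 0.05, or 9.01% of those tested, where the background was 0.487%. None was higher (0 of 111 by limma), which is close to the background of 0.246%, so nothing is read from it. At an unadjusted p under 0.05, 29 members were lower and 5 were higher. Over all 17059 probe sets, 737 were lower and 721 were higher at that level. Over all 118 members the median of wer myb23 minus scm was -0.20 (-2.52 to 1.89), and 76 members, or 64.4%, were below 0, against a median of 0.01 and 48.2% over all tested probe sets. Within each medium, both wer myb23 arrays lay below both scm arrays for 22 members (background 4.38%) and above for 2 (background 4.9%). With the filter and the spread taken from the wer myb23 and scm arrays alone, an alternative added after the data were seen, 103 members were tested and 12 were lower, the 10 among them, and 1 was higher, where the background of lower calls was 0.856%. The share of all probe sets that were higher in that fit was not computed, nor were the shares in the fits given next. Their member counts therefore have no background beside them. The test takes the spread of a probe set in part from others of like signal. Without that trend 3 members were lower, and with the first scm array on standard medium or the first on NaCl left out, 6 were.

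Of the 10, 3 carried a named gene and 7 did not. AT5G22580, of the stress-responsive A/B barrel family, read 4.78 and 51.8 on NaCl and 30.8 and 32.3 on standard medium in wer myb23, against 102 and 111 on NaCl and 93.4 and 123 on standard medium in scm. The difference, -1.98 ± 0.44 (log2, SE, limma adjusted p = 0.039), was the least secure of the 10. Its limma adjusted p was 0.058 with a pseudocount of 1, 0.068 with no filter, 0.060 after quantile normalization and 0.33 with no trend, where the effect was -2.18 to -1.94. On leaving out each of the 8 arrays in turn the call was lost in 7 fits, with the adjusted p up to 0.22. The effect ran from -2.64 without the second wer myb23 array on NaCl to -1.31 without the first. AT5G10130, the Ole e 1 family gene, read 849 and 956 on NaCl and 2183 and 1919 on standard medium in wer myb23, against 2457 and 2117 on NaCl and 3808 and 2741 on standard medium in scm, a difference of -0.997 ± 0.14 (log2, SE, limma adjusted p = 8.8e-04). AT5G60520, the late embryogenesis abundant-related gene, read 203 and 188 on NaCl and 506 and 509 on standard medium in wer myb23, against 374 and 343 on NaCl and 987 and 858 on standard medium in scm, a difference of -0.86 ± 0.12 (log2, SE, limma adjusted p = 6.2e-04). In both genes the wer myb23 arrays were below the scm arrays on each medium, and below the Columbia arrays as well.

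Of the 7 unnamed probe sets, 259592_at separated the genotypes most clearly. It read 48.3 and 79.8 on NaCl and 105 and 80.2 on standard medium in wer myb23, against 296 and 277 on NaCl and 397 and 346 on standard medium in scm, a difference of -2.05 ± 0.17 (log2, SE, limma adjusted p = 1.4e-06). Columbia, at 305 to 425, lay close to scm, and cpc try, at 986 to 1599, lay above both, so its 3 levels did not overlap apart from scm and Columbia. The strongest signal of all members was that of 267457_at, with 2231 and 2204 on NaCl and 2387 and 2925 on standard medium in wer myb23, against 3517 and 5199 on NaCl and 5699 and 5656 on standard medium in scm, a difference of -1.02 ± 0.12 (log2, SE, limma adjusted p = 1.1e-04). In cpc try it reached 11942 to 15146.

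The probe set 250083_at differed by -2.52 ± 0.49 (log2, SE, limma adjusted p = 0.015). Its wer myb23 signals, 1.55 to 15, were low, and the size of the difference moved with the pseudocount, to -3.06 with 1 and -1.64 with 16. Its limma adjusted p was 0.084 with no trend and 0.025 to 0.11 on leaving out each array, with the call lost in 5 of 8 such fits. The probe sets 260166_at (-1.59 ± 0.26, log2, SE, limma adjusted p = 0.0037) and 250558_at (-1.29 ± 0.17, log2, SE, limma adjusted p = 2.9e-04) followed. The difference was smaller for 255732_at (-0.88 ± 0.16, log2, SE, limma adjusted p = 0.0099) and 250214_at (-0.66 ± 0.14, log2, SE, limma adjusted p = 0.026). Their limma adjusted p was 0.13 and 0.23 with no trend, and leaving out single arrays ended the call in 4 of 8 fits for 255732_at and in 5 of 8 for 250214_at. The other 6 of the 10 kept their call in all such fits, but AT5G10130, 260166_at and 267457_at lost it with no trend, at 0.14, 0.14 and 0.065. Within each medium both wer myb23 arrays lay below both scm arrays for all 10 (4.38% of all probe sets). For 5 of them this held over all 4 arrays of each genotype. Both wer myb23 arrays lay below both Columbia arrays within each medium for 8. For 5 of the 10, every cpc try array was above every array of the other genotypes (1.15% of all probe sets). The 10 were called on these wer myb23 and scm arrays, and members were chosen for high cpc try. Nothing is therefore read from these counts.

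**Figure D3:**
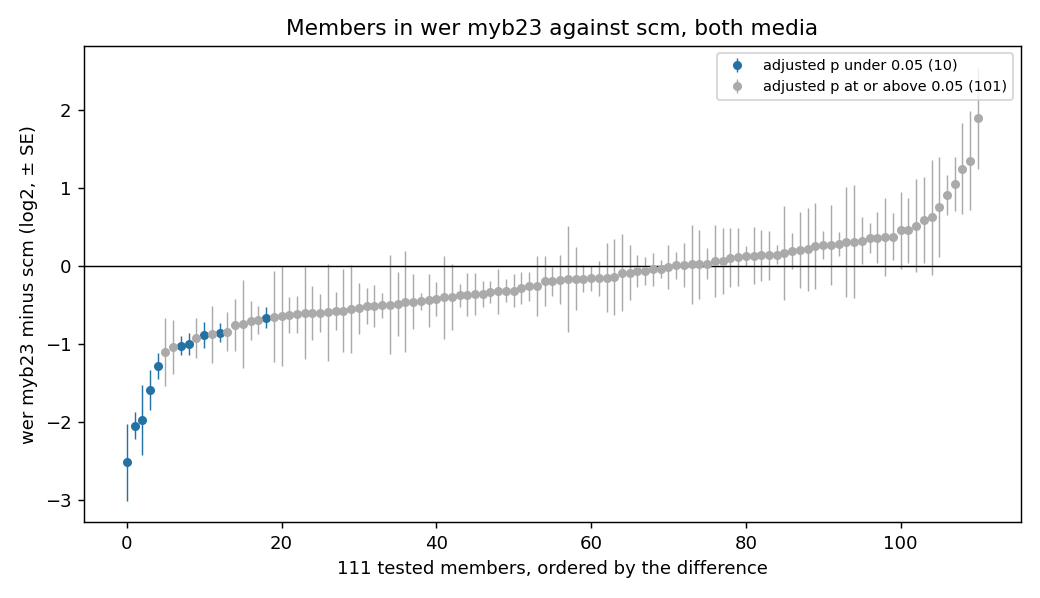
Each point is 1 of the 111 tested members, ordered along the horizontal axis by wer myb23 minus scm over both media, which the vertical axis gives in log2 with the limma standard error as a bar; blue points passed an adjusted p of 0.05. All 10 blue points are negative, from -2.52 to -0.66, and no positive difference, up to 1.89, passed.

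**Figure D4:**
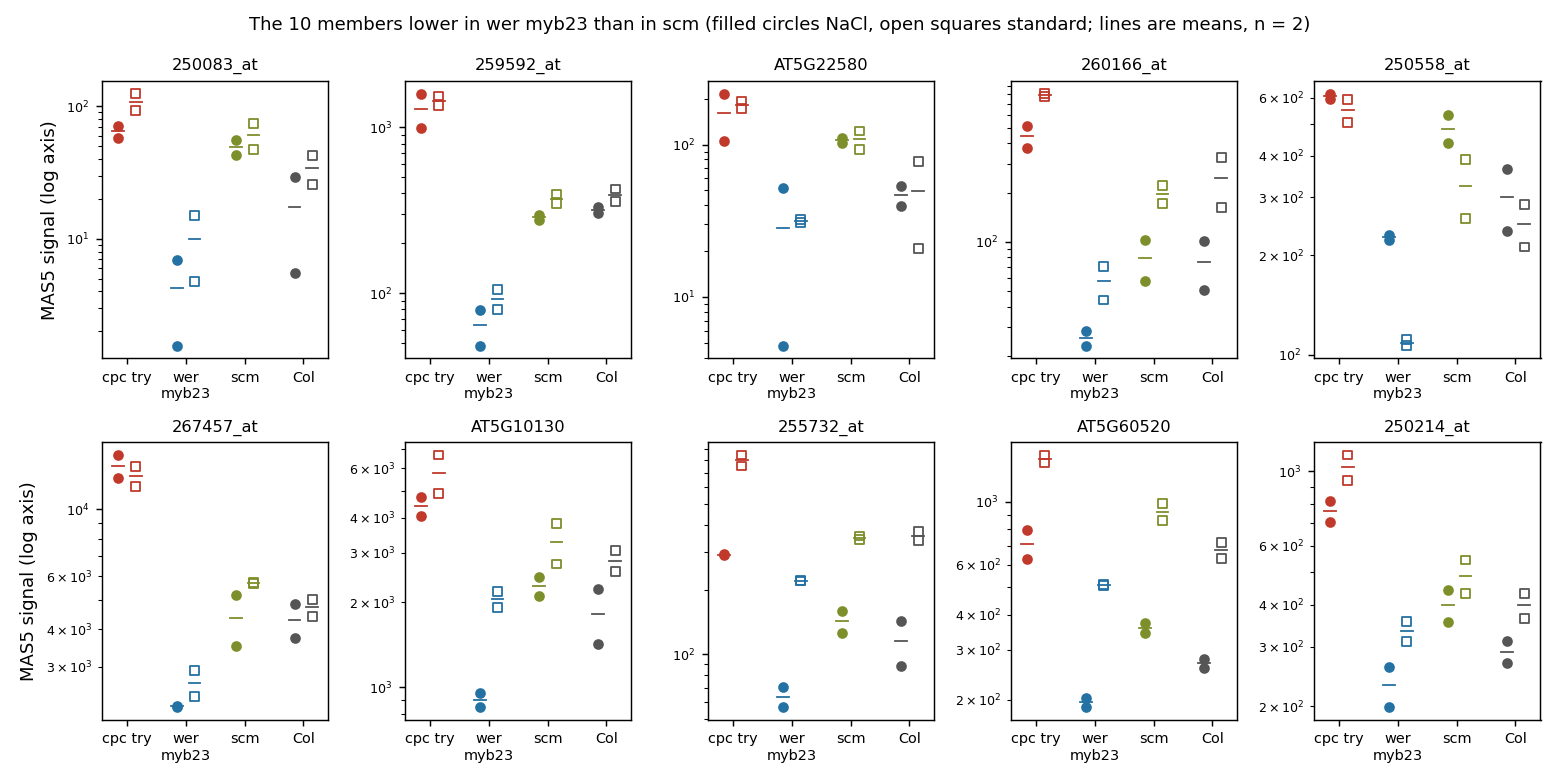
Each panel shows MAS5 signal on a log axis for 1 of the 10 members lower in wer myb23 than in scm, with cpc try, wer myb23, scm and Columbia from left to right, filled circles for NaCl, open squares for standard medium and a short line at each mean of 2 arrays. The wer myb23 points lie below the scm points within each medium in all 10 panels, and the cpc try points are the highest within each medium except on NaCl for AT5G22580.

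The salt response of the members was tested in wer myb23 and in scm, whose arrays played no part in the choice of members. Those of cpc try and Columbia did, so their differences between media are given without a test. Averaged over wer myb23 and scm, 11 of 111 members rose on NaCl (9.91%, background 8.79%) and 18 fell (16.2%, background 7.7%). In wer myb23 alone 7 rose and 13 fell (backgrounds 5.98% and 4.99%), and in scm alone 4 rose and 11 fell (backgrounds 4.72% and 3.12%). Both mutants, each tested alone, shared 3 of the rises and 10 of the falls. The share of all probe sets called in both was not computed, so nothing is read from this overlap. The median member response was -0.10 in the average, against -0.01 over all tested probe sets. The shares that rose were close to the background. Single arrays moved the counts: without the first wer myb23 array on NaCl, 7 members rose in the average and 4 in wer myb23, which was also the count without the first wer myb23 array on standard medium. In scm, 6 fell without its first standard array, and 2 rose without its second standard array or either NaCl array.

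Of the 18 that fell in the average, 8 carried a named gene. AT5G40590, which codes for a DC1-domain protein, read 30.6 and 55.7 on NaCl against 167 and 334 on standard medium in wer myb23, and 119.6 and 55.7 on NaCl against 442 and 374 on standard medium in scm. It fell by 2.33 ± 0.25 (log2, SE, limma adjusted p = 6.8e-07). AT5G62330 read 182 and 133 on NaCl against 519.9 and 558 on standard medium in wer myb23, and 145 and 224 against 558 and 615 in scm, and fell by 1.72 ± 0.17 (log2, SE, limma adjusted p = 2.4e-07). AT5G60520 fell by 1.35 ± 0.12 (log2, SE, limma adjusted p = 2.7e-08), with NaCl arrays below standard arrays in every genotype. The BAHD acyltransferase gene AT5G47980 fell by 1.01 ± 0.16 (log2, SE, limma adjusted p = 9.3e-05), and the Ole e 1 gene AT5G10130 by 0.84 ± 0.14 (log2, SE, limma adjusted p = 1.7e-04). Falls with wider errors were those of AT5G24240 (1.92 ± 0.53, log2, SE, limma adjusted p = 0.015), AT5G62280 (1.49 ± 0.39, log2, SE, limma adjusted p = 0.010) and the small heat shock-like gene AT2G19310 (1.15 ± 0.29, log2, SE, limma adjusted p = 0.0073). Among the unnamed probe sets, 263218_at fell by 1.61 ± 0.34 (log2, SE, limma adjusted p = 0.0019) and 255732_at by 1.51 ± 0.16 (log2, SE, limma adjusted p = 6.8e-07). The direction in cpc try and in Columbia was the same for all 18. AT5G40590, for example, read 183 and 245 on NaCl against 614 and 783 on standard medium in cpc try. The share of all called probe sets that kept their direction in cpc try and Columbia was not computed. Nothing is therefore read from the 18.

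Of the 11 that rose, 2 carried a named gene. AT5G18470, the curculin-like lectin, read 294 and 325 on NaCl against 51.9 and 36.7 on standard medium in wer myb23, and 330.1 and 380.5 against 123 and 73.5 in scm, a rise of 2.28 ± 0.23 (log2, SE, limma adjusted p = 2.6e-07). In cpc try it read 955 and 495 on NaCl against 229 and 136 on standard medium, and in Columbia 364 and 279 against 46.3 and 65.1, so the NaCl arrays were the higher pair in each genotype. The DnaJ gene AT2G20560 rose by 1.11 ± 0.28 (log2, SE, limma adjusted p = 0.0079). It read 121 and 45.3 on NaCl against 54.6 and 34.9 on standard medium in wer myb23, which overlapped, and 111 and 89.3 on NaCl against 37.5 and 28.3 on standard medium in scm. In wer myb23 alone it did not pass (limma adjusted p = 0.31). The largest rises were those of the unnamed probe sets 253046_at (2.83 ± 0.34, log2, SE, limma adjusted p = 3.0e-06) and 247437_at (2.80 ± 0.42, log2, SE, limma adjusted p = 4.7e-05). The first read 194 and 236 on NaCl against 36.9 and 22.9 on standard medium in wer myb23. The difference between media had the same sign for 10 of the 11 in cpc try, all but 264436_at, and for 10 in Columbia, all but AT2G20560. As for the falls, the share over all called probe sets was not computed, and nothing is read from these counts.

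By role, the average response, with backgrounds of 7.7% for falls and 8.79% for rises, gave 1 fall among the 13 tested of 14 genes of specialised metabolism and 1 fall among the 11 tested of 12 genes of transcription and signalling. The 6 tested of 7 chaperone and stress genes gave 2 falls and 1 rise. The 5 cell wall genes, all tested, gave 1 fall, and the 6 lectin, protease and defence genes, all tested, gave 1 rise. The 15 tested of 17 genes of other or unknown function gave 3 falls. The salt response did not pass the test of a difference between wer myb23 and scm for any member. The count by limma was 0 higher and 0 lower, and 0 of all 17059 probe sets passed, so such differences were not detectable here. At an unadjusted p under 0.05, 6 of the 111 tested members were higher and 1 was lower. Over all 17059 probe sets, 403 were higher and 492 were lower at that level, and nothing is read from these counts.

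**Figure D5:**
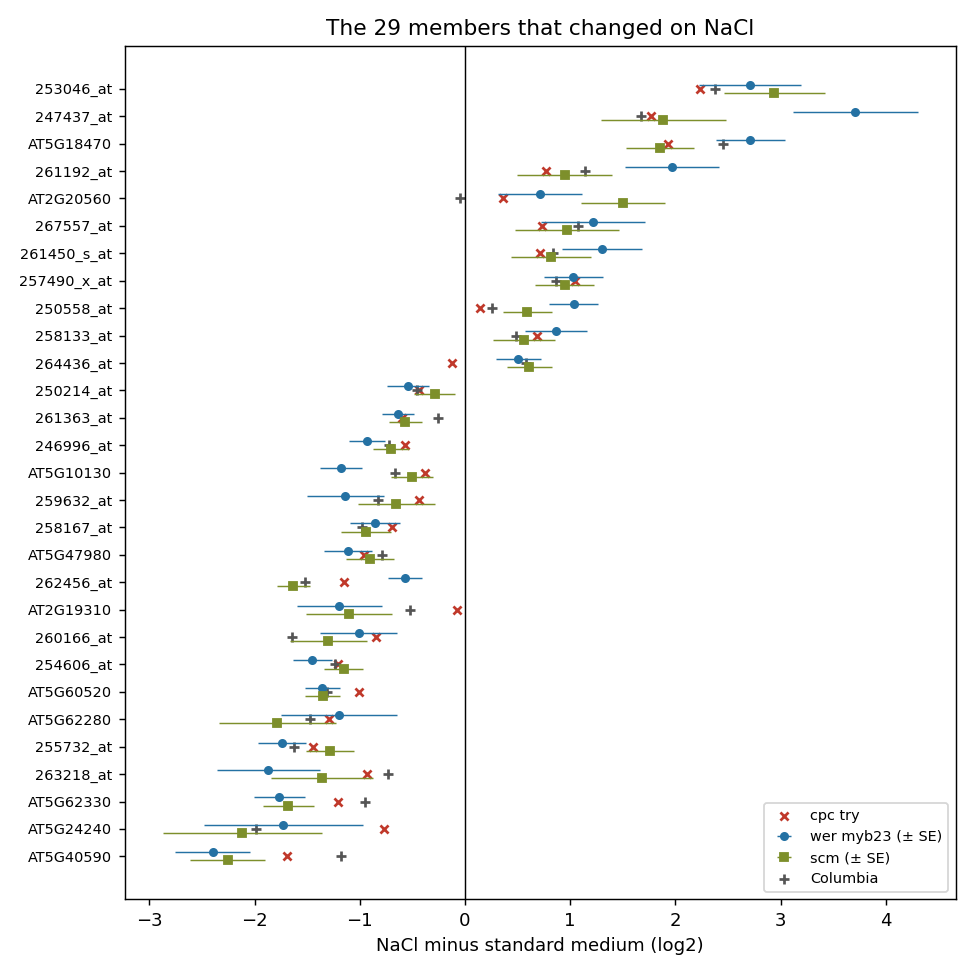
Each row is 1 of the 29 members that changed on NaCl in the average of wer myb23 and scm, and the horizontal axis gives NaCl minus standard medium in log2(signal + 4.1) for cpc try (crosses), wer myb23 (circles), scm (squares) and Columbia (plus signs), with limma standard errors for the tested mutants. The 18 falls lie left of 0 in all 4 genotypes, from AT5G40590 at the bottom upward, and AT5G18470 stands at 1.85 or more in each genotype.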

How the data were processed

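The values are the authors' MAS5 signals from the deposited series table, 1 linear intensity per probe set and array. Per the submitters' processing notes they were made with MAS5; its version was not given in the sources used here. Per the labels, biotin-labelled targets were made by one-cycle amplification and hybridised to ATH1 arrays. Every array had a trimmed mean of 250.03.

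The members and gene lists were chosen with earlier results of these data known. Signals were taken to log2(signal + 4.1), where the pseudocount is the tenth percentile of all signals. The 64 control probe sets were left out, and probe sets below the 25th percentile of mean log2 value were not tested, which left 17059, among them 111 members. A model with 1 mean for each of 8 groups was fitted with limma 3.58.1 (R 4.3.3, empirical Bayes with trend) over all 16 arrays, with Benjamini-Hochberg adjustment over all tested probe sets and a threshold of 0.05. Precision is limited by having 2 arrays in a group, and the p-values measure the spread between biological replicates of pooled roots. The procedure was tested on simulated data. No member was tested in cpc try against Columbia, which chose them.

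Probe sets were named through the platform annotation, updated by gene identifier: 13513 had 1 gene, 503 had several and 8730 had none. The genes named in the text were the 25 with the largest mean difference, the 8 largest rises and falls in each test, those sharing a family or list, and those at the threshold; other members were added after their values were seen to complete the role groups, which were also assigned then. Promoter sequences were not analysed here. Same-numbered replicates of different groups did not deviate together (correlation -0.0173 to 0.0299 over 28 pairs of groups).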

Additional observations from a re-analysis of the deposited data

How the results depend on the processing

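Other pseudocounts (1 and 16), filters, scalings, arrays in the fit and a fit without the trend were tried. With all arrays kept, 115 alternative counts stayed within 1.5 times the reported one and 9 did not. The filter at the median left AT5G22580 and 250083_at untested. Their calls were thus absent there, and for that filter they are not among the calls counted next. Of the effects of the 10 members lower in wer myb23 than in scm none changed direction, 88 kept their call and 10 lost it; leaving out 1 array ended the call in 21 of 80 fits (AT5G22580 in 7, 250083_at and 250214_at in 5 each, 255732_at in 4). Without the trend, wer myb23 minus scm gave 3 lower members and the scm salt response gave 2 rises and 7 falls. With only the compared genotypes in the fit, 1 member was higher in wer myb23 than in scm, and 1 was with the filter also taken from those arrays, an alternative added after the data were seen. Of the matching shares over all probe sets, only that of lower calls in the last fit was computed. The listed genes higher in cpc try came to 1 after centring arrays on their median and to 1 after quantile normalization. Centring moved the median of all tested probe sets in cpc try minus Columbia by 0.13 on the log2 scale. The members numbered 193 with a minimum signal of 25 and 71 with 100, since the rule itself then admits more or fewer. They numbered 177 after centring, 162 after quantile normalization, and 133 and 84 with pseudocounts of 1 and 16. The cause of the other changes was not tested. Leaving out 1 array at a time gave 4 to 8 rises and 9 to 13 falls on NaCl in wer myb23, 2 to 3 and 6 to 12 in scm, and 7 to 10 and 15 to 19 in their average. It gave 0 to 0 members higher and 6 to 11 lower in wer myb23 than in scm, 0 to 0 in either direction for the difference in salt response, 0 to 1 listed genes higher and 6 to 7 lower, and 111 to 133 members. Of the 118 members reported, the fewest kept on leaving out 1 array were 89, without the second Columbia array on standard medium. The most kept were 107, without the second cpc try array on NaCl. Membership itself thus changed more with single arrays than the number of members shows. With the replicate number as a block, 11 members were lower in wer myb23 than in scm, and no other count changed. Depth is not defined for arrays; 47 members had a mean Columbia signal under 50 on both media, where differences are least precise.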
